A study of Mus musculus with 16 samples.

Results

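The question here was whether the colon mucosa of mice lacking Mcc in the intestinal epithelium responded to sulindac differently from that of mice that kept it. For each gene, the interaction of genotype with sulindac is the lesion minus control difference in knockout (KO) mice less the same difference in wild-type (WT) mice, on the log2 scale. A positive interaction means a higher response in KO mice, through a larger rise or a smaller fall, and a negative one a lower response. The comparison takes all 16 of the 16 arrays of the series, with 6 controls and 3 sulindac arrays in WT mice and 3 controls and 4 sulindac arrays in KO mice. It was fitted for 30704 genes. All animals were male C57BL/6J mice that carried the floxed Mcc allele. KO mice (VILcreMccf/f) also carried Cre driven by the villin promoter, which is active in intestinal epithelium, so the design leaves Mcc intact in cells that do not use that promoter. Siblings with Mccf/f and no Cre are called WT. From 6 weeks of age the mice ate control feed or feed with 320 ppm sulindac for 10 weeks, and the mucosal layer of their proximal colon was taken for RNA. Sulindac arrays hold inflamed areas, called lesions here, and control arrays hold matching normal tissue. Uninflamed mucosa from mice on sulindac was not analysed here, so the drug and the choice of inflamed tissue cannot be told apart. The labels do not say that the arrays come from separate animals, and the p-values measure only the spread between these samples, which may be technical.

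Sulindac is a non-steroidal anti-inflammatory drug that blocks prostaglandin synthesis by cyclooxygenases, and drugs of this class can injure the gut lining. Mcc encodes a cytoplasmic protein named for its mutation in colorectal cancers, with roles described in cell adhesion and Wnt signalling. An ulcerated or inflamed mucosa draws in neutrophils and monocytes, induces cytokines and wound-repair genes in the epithelium, and turns on fibrin formation and its breakdown by plasmin. Plasmin is made from plasminogen by activators of the tissue type, encoded by Plat, and of the urokinase type, encoded by Plau.

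Mcc itself had an interaction of -0.19 ± 0.12 (SE), with an adjusted p of 0.514. Mcc lay at 7.40, 7.09 and 7.18 for WT lesions, beside a WT control range of 7.06 to 7.35 (median 7.13), and at 6.39, 6.42, 6.47 and 6.45 for KO lesions, beside KO controls of 6.57, 6.71 and 6.43. Every KO array lay below every WT array, and KO arrays kept a signal above the array medians. The tissue label was checked on 24 markers of absorptive colonocytes, and none had a mean below the array medians of 4.90 to 5.05. The first principal component held 54.5% of the variance and separated lesions from controls. On it, KO lesions lay at 58.3, 44.9, 35.1 and 54.1 and WT lesions at 33.8, 34.7 and 27.6. KO lesion 3, at 35.1, was the KO lesion nearest the WT lesions, while its Mcc level was that of the other KO arrays. For the genes described here, those called without this array are given with their values without it.

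Plat was the gene whose response to sulindac passed the test for a difference between the genotypes. Of 30704 genes, 1 passed an adjusted p of 0.05, which is 0.00326% of those tested. The smallest adjusted p after Plat was 0.117, of the predicted gene Gm9733, which was chosen after its values were seen. At an unadjusted p under 0.05 there were 3422 genes (11.1%), of which 1793 (5.84%) had a positive and 1629 (5.31%) a negative interaction. The median interaction of all genes was 0.06 with a positive sign in 61.9% of genes and a negative sign in 38.1%. These shares are the background for each list of genes described here, with all 6 WT controls unless stated. Numbers in the sample descriptions fall in 2 series. WT controls 1 to 3 and all lesions have lower numbers, and WT controls 4 to 6 and KO controls higher ones. With WT controls 4 to 6 alone, 1714 of the 30704 genes had an unadjusted p under 0.05, and with WT controls 1 to 3 alone 4983 did. Where no gene differs, chance gives about 1 in 20 at that threshold. The 95% interval of a gene's interaction had a median width of 0.307 log2 units on each side. For 27970 genes (91.1%) the interval lay within 1 log2 unit of 0, which puts a difference of more than 1 unit between the responses outside the interval. Of the 30704 genes, 10978 had a mean below the median of all values, where signals are close to background. In the separate responses, 4712 genes (15.3%) were called in WT and 6470 (21.1%) in KO mice. KO controls and KO lesions differ in number series, so the KO response cannot be told apart from a shift between the series. With the series as a covariate, 4118 genes were called in WT and 2511 in KO mice. Between lesions of the genotypes 94 genes (0.306%) were called, 76 (0.248%) higher and 18 (0.0586%) lower in KO mice. Lesions with the same replicate number deviated together (correlations of 0.47, 0.30 and 0.54), and with that number as a block 2 genes were called between lesions. The number in a call count does not say which genes they are, and a gene called in 1 genotype alone is not shown to differ between them.

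**Figure D1:**
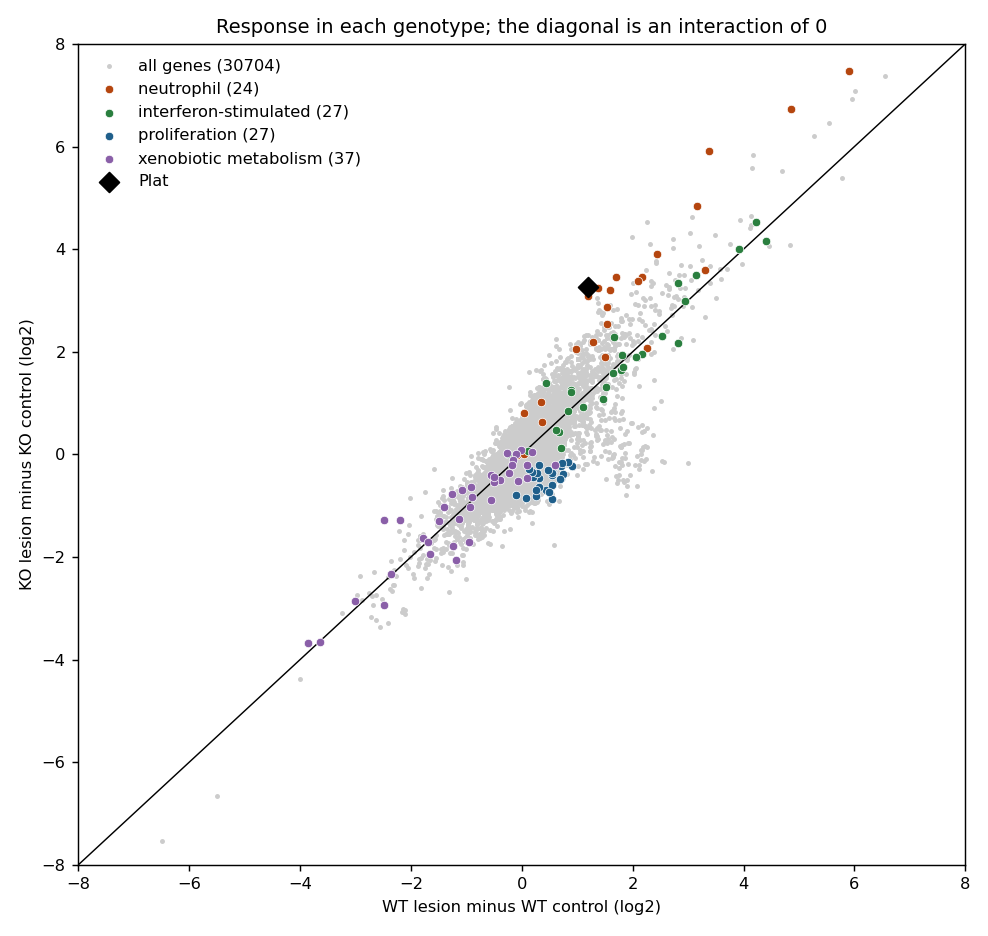
Response of each gene in KO mice (vertical, KO lesion minus KO control, log2) against that in WT mice (horizontal, WT lesion minus WT control, log2), with 4 gene lists in colour and the diagonal marking an interaction of 0. Plat lies at 1.20 and 3.26, above the diagonal, neutrophil genes lie mostly above it, interferon-stimulated and xenobiotic genes along it, and all 27 proliferation genes below it.

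Plat, the tissue-type plasminogen activator, rose in lesions of both genotypes, and the rise was larger in KO mice. Plat in WT mice was 5.61 to 5.89 among controls (median 5.68) and 6.87, 6.86 and 7.0 among lesions, and in KO mice 5.53, 5.69 and 5.72 among controls and 9.21, 9.15, 8.66 and 8.62 among lesions. Every KO lesion lay above every WT lesion, the controls of the genotypes overlapped, and the spread within each group was small beside the gap. The WT response was 1.20 log2 units, a 2.3-fold rise, and the KO response 3.26, a 9.61-fold rise. Their difference, the interaction, was 2.06 ± 0.17 (SE) with a 95% interval of 1.69 to 2.44 over the 16 arrays, a 4.18-fold larger rise in KO mice, with limma's adjusted p of 1.35e-04. Between lesions the genotypes differed by 2.0 (adjusted p 2.60e-06) and between controls by -0.06 (adjusted p 1). With replicate number as a block, the lesion difference was 2.07 (limma's adjusted p 0.00107). KO lesion 3 was no exception here, with a value of 8.66 against 8.62 in KO lesion 4, and with that array left out the interaction was 2.15 (adjusted p 8.35e-05).

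Other genes of clotting and plasminogen activation leaned the same way without passing the test. Of the 19 listed genes other than Plat, 15 had a positive interaction, 7 of them with an unadjusted p under 0.05 and none negative at that p, and their median was 0.31. With KO lesion 3 left out, 4 of the 19 were called, all positive, among them Serpinb2 at 1.82 (adjusted p 0.00809), and the median was 0.24. Serpinb2 ran from 3.29 to 3.46 over WT controls (median 3.34) and read 4.18, 4.18 and 3.57 over WT lesions, while KO controls read 3.28, 3.29 and 3.32 and KO lesions 5.32, 5.45, 4.45 and 6.41. Serpinb2 encodes an inhibitor of plasminogen activators, and every KO lesion lay above every WT lesion, with an interaction of 1.50 ± 0.40 (SE) and an adjusted p of 0.397. Its controls, its WT lesions and KO lesion 3 lay under the array medians, where signals are close to background. F3 lay at 10.49, 10.57 and 10.62 for WT lesions, beside a WT control range of 6.78 to 7.52 (median 7.07), and at 11.92, 11.58, 11.37 and 11.27 for KO lesions, beside KO controls of 7.46, 7.48 and 6.84. F3 is tissue factor, the starter of clotting, and it rose in both genotypes, by 3.48 in WT and 4.28 in KO mice, with an interaction of 0.79 ± 0.26 (SE) (adjusted p 0.406). Plaur in WT mice was 6.69 to 7.56 among controls (median 7.18) and 9.87, 9.40 and 9.30 among lesions, and in KO mice 7.31, 7.24 and 6.79 among controls and 11.13, 10.66, 10.01 and 10.05 among lesions. Plaur is the urokinase receptor. It rose by 2.36 in WT and 3.35 in KO mice with an interaction of 0.99 ± 0.36 (SE) (adjusted p 0.406), and the lesions of the genotypes did not overlap. Plau ran from 5.71 to 6.37 over WT controls (median 5.96) and read 8.05, 8.31 and 7.95 over WT lesions, while KO controls read 5.94, 5.59 and 6.07 and KO lesions 8.54, 9.44, 7.70 and 8.33. For urokinase itself the lesions overlapped, and its interaction of 0.52 ± 0.38 (SE) had an adjusted p of 0.559. Both activators therefore rose in each genotype, and the difference between the genotypes passed the test for Plat. Whether Plat and Plau differ in their interactions was not tested.

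**Figure D2:**
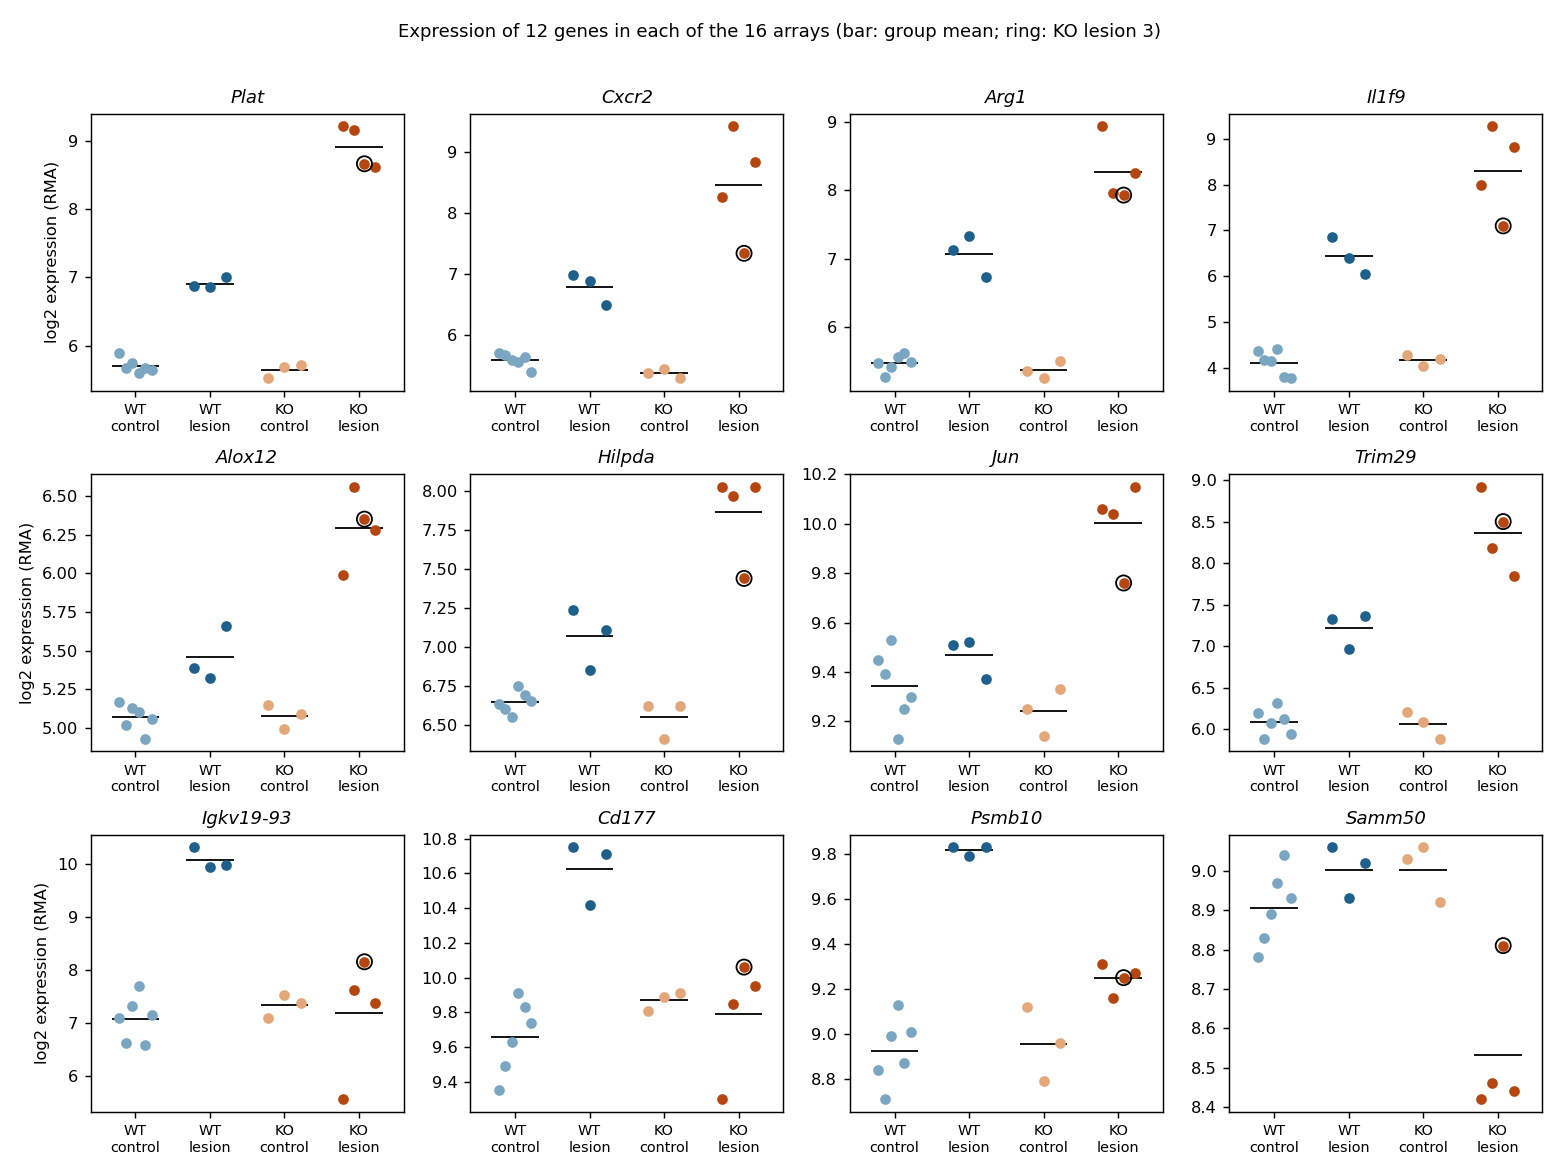
RMA log2 expression (vertical) of 12 genes in each array, grouped by genotype and tissue, with a bar at each group mean and a ring around KO lesion 3. Plat is the gene that passed the test, with KO lesions from 8.62 to 9.21 above WT lesions from 6.86 to 7.0. KO lesion 3 is the lowest KO lesion for Cxcr2, Arg1, Il1f9, Hilpda and Jun and the highest for Igkv19-93, Cd177 and Samm50.

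Neutrophil genes made up the list with the highest median interaction, 1.18, against 0.06 for all genes. Of 24 genes, 22 were positive and 16 had an unadjusted p under 0.05, none was called, and the 2 negative ones were Slfn4 at -0.18 and Camp at -0.04. With WT controls 4 to 6 alone, the median was 1.14 and 13 genes had an unadjusted p under 0.05. In WT mice 17 were called higher in lesions and in KO mice 21, where 6.98% and 8.98% of all genes were called higher. The mean log2 level of the list lay at 6.77, 6.78 and 6.37 for WT lesions, beside a WT control range of 4.82 to 4.94 (median 4.83), and at 7.66, 8.25, 6.84 and 8.14 for KO lesions, beside KO controls of 4.87, 4.92 and 4.83. KO lesion 3 lay just above the WT lesions, the other 3 KO lesions well above them, and the controls of the genotypes overlapped. In RNA from whole mucosa, a change in the number of cells and a change in RNA per cell cannot be told apart.

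Cxcr2 and Csf3r, the receptors that bring neutrophils into tissue and sustain them, had interactions of 1.90 ± 0.43 (SE) and 1.34 ± 0.30 (SE). Cxcr2 in WT mice was 5.40 to 5.71 among controls (median 5.62) and 6.99, 6.88 and 6.50 among lesions, and in KO mice 5.38, 5.45 and 5.30 among controls and 8.26, 9.42, 7.34 and 8.84 among lesions. Csf3r ran from 4.89 to 5.25 over WT controls (median 5.04) and read 6.88, 6.58 and 6.29 over WT lesions, while KO controls read 5.03, 5.11 and 5.07 and KO lesions 8.23, 8.46, 7.17 and 7.90. Every KO lesion was above every WT lesion for both receptors, and the adjusted p was 0.329 and 0.314. Retnlg, a resistin-like protein of granulocytes, had the largest positive interaction of all genes, 2.53 ± 0.62 (SE) (adjusted p 0.39). Retnlg lay at 7.11, 7.08 and 6.33 for WT lesions, beside a WT control range of 3.13 to 3.71 (median 3.52), and at 8.55, 10.20, 7.64 and 10.11 for KO lesions, beside KO controls of 3.34, 3.20 and 3.09. Its KO lesions spread from 7.64 to 10.20, so the standard error is wide although the groups did not overlap. S100a9 in WT mice was 4.54 to 5.18 among controls (median 4.68) and 10.36, 9.75 and 8.77 among lesions, and in KO mice 4.49, 4.74 and 4.72 among controls and 11.11, 12.14, 10.16 and 12.15 among lesions. S100a8 ran from 2.99 to 3.32 over WT controls (median 3.15) and read 9.54, 9.48 and 8.09 over WT lesions, while KO controls read 3.26, 3.02 and 3.09 and KO lesions 10.37, 11.26, 9.44 and 11.29. S100a8 and S100a9 form calprotectin, the abundant cytosolic protein of neutrophils. Both rose steeply in each genotype, and KO lesion 3 overlapped the WT lesions, with interactions of 1.57 and 1.87 (adjusted p 0.406 and 0.405). Trem1 lay at 6.37, 6.05 and 5.93 for WT lesions, beside a WT control range of 4.21 to 4.53 (median 4.43), and at 7.69, 8.43, 6.60 and 8.57 for KO lesions, beside KO controls of 4.38, 4.53 and 4.15. Trem1, an activating receptor of neutrophils and monocytes, had an interaction of 1.78 ± 0.44 (SE) (adjusted p 0.39). Mmp8, neutrophil collagenase, and Mrgpra2a, a receptor found on neutrophils that is not on the list, followed with 1.87 and 2.25. Control values of Retnlg, S100a8, S100a9, Trem1 and Mmp8 lay near or under the array medians, where signals are close to background.

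The calls depended on KO lesion 3. Leaving that array out moved the count over all genes from 1 to 517 (1.68%), 279 positive (0.909%) and 238 negative (0.775%), and 15 of the 24 neutrophil genes were among the positive ones. The list's median rose from 1.18 to 1.58. Called then were Cxcr2 at 2.28 (adjusted p 0.00118), Csf3r at 1.60 (0.00116), Retnlg at 3.03 (0.00484) and Trem1 at 2.18 (7.39e-04), and also Mrgpra2a at 2.72 (adjusted p 0.00289), Mmp8 at 2.30 (0.0107), S100a9 at 2.28 (0.0194) and S100a8 at 1.96 (0.0301). Leaving out any other single array gave between 1 and 5 calls. Without KO lesion 3 and with only the WT controls of the higher number series, 76 genes were called, 67 positive and 9 negative. That setting was chosen after the data were seen, and it also holds fewer controls. The calls named in the text without KO lesion 3 are those with all WT controls. Many of them are not among the 76. Of 30 other settings, only the one without KO lesion 3 called S100a8, S100a9, Mmp8, Arg1, Slc11a1, Cxcl2, Ccl3, Osm, Il1b and Il1f9. The same holds for Jun, Adm, Slc16a3, Grhl3, Tnfrsf23, Map4k4 and Tmem95. Among negative genes it holds for Mcm6, Mki67, Kif11, Top2a, Mrps35, Psmb10, Cd177, Sidt1, Polr2j, Spink4, Reg4, Pla2g2a and Gm12251. For genes where KO lesion 3 lay nearest the WT lesions, leaving it out widens the gap and narrows the spread of KO lesions. Calls of such genes without it are therefore favoured by the omission and are no separate support for an interaction. What sets KO lesion 3 apart was not tested.

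**Figure D3:**
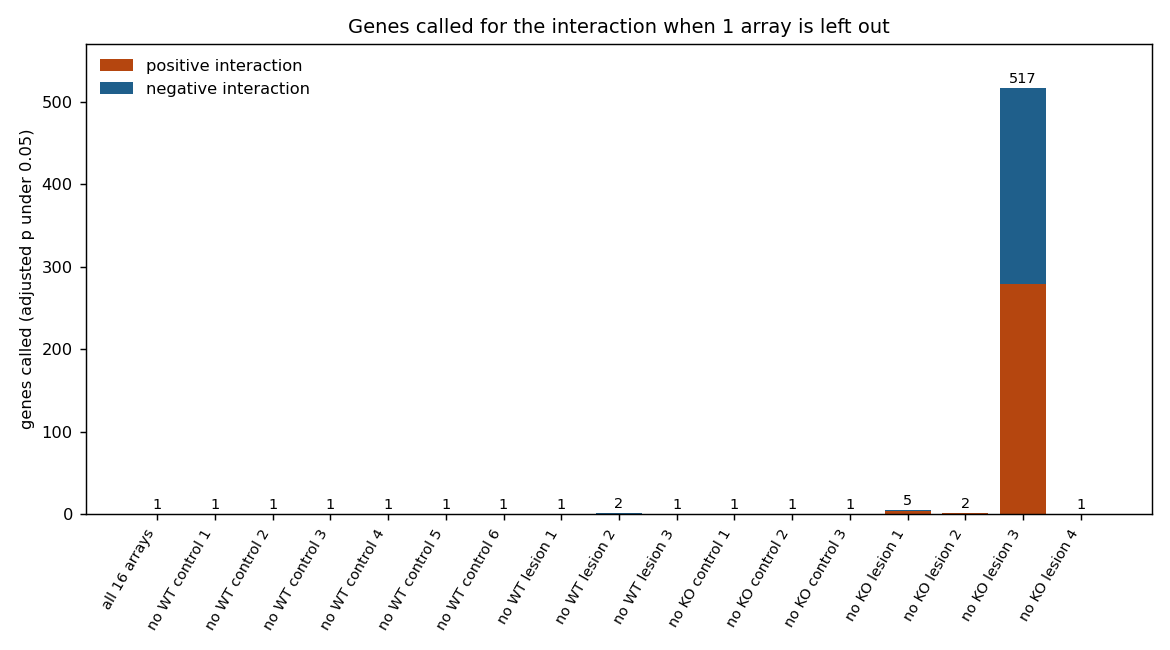
Number of genes called for the interaction (vertical, adjusted p under 0.05) with all 16 arrays and with each array left out in turn (horizontal). The count is 517 without KO lesion 3, 5 without KO lesion 1, and 1 or 2 in every other case.

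Monocyte and macrophage genes showed a smaller shift. Of 22, 17 were positive and 6 had a positive sign at an unadjusted p under 0.05, with a median of 0.21; 18 were called higher in each genotype, where 6.98% of all genes were called higher in WT and 8.98% in KO lesions. Arg1 in WT mice was 5.27 to 5.62 among controls (median 5.48) and 7.13, 7.33 and 6.73 among lesions, and in KO mice 5.35, 5.25 and 5.50 among controls and 8.94, 7.96, 7.93 and 8.26 among lesions. Arg1, arginase of activated myeloid cells, rose by 1.59 in WT and 2.91 in KO mice, without overlap of the lesions, and its interaction was 1.31 ± 0.27 (SE) (adjusted p 0.314). Siglece, an inhibitory receptor of myeloid cells for sialic acids, had one of the lowest unadjusted p-values, 4.96e-05, with an interaction of 0.84 ± 0.15 (SE) (adjusted p 0.257). Siglece ran from 4.58 to 4.78 over WT controls (median 4.63) and read 4.91, 5.0 and 4.93 over WT lesions, while KO controls read 4.51, 4.72 and 4.44 and KO lesions 5.71, 5.90, 5.34 and 5.78. Its WT lesions lay just above the controls and its KO lesions above both. Olr1 lay at 6.94, 6.60 and 6.61 for WT lesions, beside a WT control range of 4.24 to 4.95 (median 4.38), and at 9.22, 9.71, 7.33 and 9.10 for KO lesions, beside KO controls of 4.44, 4.25 and 4.22. Olr1, a scavenger receptor for oxidised lipoprotein, had the second largest positive interaction, 2.28 ± 0.52 (SE) (adjusted p 0.329). Slc11a1, a metal transporter of phagosomes, had a small and even difference. Slc11a1 in WT mice was 5.60 to 5.86 among controls (median 5.69) and 6.50, 6.37 and 6.27 among lesions, and in KO mice 5.57, 5.63 and 5.69 among controls and 6.96, 7.08, 6.75 and 6.87 among lesions. Each KO lesion was above each WT lesion by a narrow margin, with an interaction of 0.62 ± 0.12 (SE) and an adjusted p of 0.281. Olr1, Siglece and Slc11a1 are not members of the list. The resident-macrophage genes C1qa, C1qb and C1qc had interactions of 0.13, -0.20 and 0.04. Without KO lesion 3, 2 of the 22 genes were called, among them Arg1 at 1.43 (adjusted p 0.0173). Outside the list, Olr1 at 2.78 (adjusted p 8.35e-05), Siglece at 0.95 (0.00118) and Slc11a1 at 0.67 (0.0111) were also called then.

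Of 32 cytokine and chemokine genes, 27 had a positive interaction, 12 with an unadjusted p under 0.05, and 2 were negative at that p, with a median of 0.48. In WT lesions 17 were called higher, against 6.98% of all genes, and in KO lesions 26, against 8.98%. Il1f9 ran from 3.79 to 4.42 over WT controls (median 4.18) and read 6.86, 6.41 and 6.05 over WT lesions, while KO controls read 4.29, 4.06 and 4.20 and KO lesions 7.99, 9.27, 7.10 and 8.81. Il1f9 encodes interleukin-36 gamma, an epithelial alarm cytokine. It rose in both genotypes with an interaction of 1.80 ± 0.50 (SE) (adjusted p 0.397), and its lesions did not overlap. Cxcl2 lay at 8.21, 7.86 and 7.24 for WT lesions, beside a WT control range of 4.54 to 4.81 (median 4.71), and at 9.03, 10.60, 7.23 and 10.46 for KO lesions, beside KO controls of 4.77, 4.57 and 4.75. For Cxcl2, a ligand of Cxcr2, KO lesion 3 at 7.23 was at the level of the lowest WT lesion, and the interaction was 1.56 ± 0.75 (SE) (adjusted p 0.452). Il1b in WT mice was 4.82 to 5.62 among controls (median 5.05) and 11.43, 11.17 and 10.86 among lesions, and in KO mice 5.18, 5.14 and 5.09 among controls and 12.29, 12.71, 11.25 and 12.59 among lesions. Interleukin-1 beta rose by 6.02 in WT and 7.08 in KO mice, so its interaction of 1.06 ± 0.38 (SE) (adjusted p 0.406) was small beside either response. Osm, oncostatin M, and Ccl3, a chemokine of monocytes and neutrophils, had interactions of 1.20 and 1.58, with overlap of the lesions for both. Ccl8 ran from 3.79 to 4.31 over WT controls (median 3.93) and read 5.44, 5.96 and 5.60 over WT lesions, while KO controls read 3.88, 3.80 and 3.82 and KO lesions 4.03, 4.74, 4.64 and 4.73. Ccl8, a chemokine for monocytes, went the other way. It rose by 1.66 in WT and 0.70 in KO mice, with every KO lesion below every WT lesion and an interaction of -0.96 ± 0.24 (SE) (adjusted p 0.39). Controls and KO lesions of Ccl8 lay under the array medians, where signals are close to background. Without KO lesion 3, 12 of the 32 genes were called, all with a positive sign, among them Cxcl2 at 2.26 (adjusted p 0.0176), Ccl3 at 2.22 (0.0194), Osm at 1.53 (0.0191) and Il1b at 1.38 (0.0185). Il1f9, which is not on the list, was called too, with Il1f9 at 2.19 (adjusted p 0.00949).

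Among 32 genes of eicosanoid synthesis and signalling, the pathway on which sulindac acts, 21 were positive and the median of 0.08 was close to that of all genes. Alox12 lay at 5.39, 5.32 and 5.66 for WT lesions, beside a WT control range of 4.93 to 5.17 (median 5.08), and at 5.99, 6.56, 6.35 and 6.28 for KO lesions, beside KO controls of 5.15, 4.99 and 5.09. Alox12, the platelet-type 12-lipoxygenase, had an interaction of 0.83 ± 0.15 (SE) (unadjusted p 7.07e-05, adjusted p 0.257), and the lesions of the genotypes did not overlap. Alox5ap in WT mice was 6.65 to 6.97 among controls (median 6.80) and 7.67, 7.59 and 7.15 among lesions, and in KO mice 7.14, 6.87 and 6.64 among controls and 8.81, 9.25, 8.05 and 9.61 among lesions. Alox5ap, which presents arachidonic acid to 5-lipoxygenase for leukotriene synthesis, was called higher in KO lesions (2.05) and had 0.67 in WT lesions (adjusted p 0.0739), with an interaction of 1.37 ± 0.35 (SE) (adjusted p 0.397). Ptgs2 ran from 5.36 to 6.46 over WT controls (median 5.76) and read 11.30, 11.45 and 10.38 over WT lesions, while KO controls read 6.01, 5.25 and 5.70 and KO lesions 11.82, 12.68, 10.61 and 12.36. Ptgs2, the inducible cyclooxygenase, rose by 5.26 in WT and 6.21 in KO mice. Its lesions overlapped, with an interaction of 0.95 ± 0.55 (SE) (adjusted p 0.488). Pla2g2a lay at 8.78, 8.49 and 8.58 for WT lesions, beside a WT control range of 5.65 to 6.51 (median 6.08), and at 7.71, 6.75, 8.52 and 7.10 for KO lesions, beside KO controls of 6.83, 6.57 and 6.04. Pla2g2a, a secreted phospholipase, was the most negative gene of the list at -1.47 ± 0.45 (SE) (adjusted p 0.406). Its KO lesion 3, at 8.52, lay at the level of the WT lesions and the other 3 below them. Leaving out KO lesion 3 called 2 genes of the list with a positive sign, Alox5ap at 1.67 (adjusted p 0.00484) and Alox12 at 0.81 (0.0256), and 1 with a negative one, Pla2g2a at -1.80 (adjusted p 0.0212).

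Immediate early genes, which cells switch on within a short time of a stimulus, leaned towards the KO lesions as a list. Of 25, 23 were positive, 9 with an unadjusted p under 0.05 and none negative at that p, with a median of 0.38; 11 had every KO lesion above every WT lesion, against 5.47% of all genes. In the separate responses 5 were called higher in WT lesions, against 6.98% of all genes, and 14 in KO lesions, against 8.98%. Jun in WT mice was 9.13 to 9.53 among controls (median 9.35) and 9.51, 9.52 and 9.37 among lesions, and in KO mice 9.25, 9.14 and 9.33 among controls and 10.06, 10.04, 9.76 and 10.15 among lesions. Jun, a subunit of the AP-1 transcription factor, was called higher in KO lesions (0.76), while its WT response was 0.12 (adjusted p 0.429). Its interaction was 0.64 ± 0.14 (SE) with an adjusted p of 0.314. Dusp1 ran from 7.0 to 7.86 over WT controls (median 7.61) and read 9.01, 8.54 and 8.54 over WT lesions, while KO controls read 7.78, 7.33 and 7.52 and KO lesions 10.38, 10.08, 9.44 and 9.55. Dusp1, a phosphatase that turns off MAP kinases, rose in both genotypes, with an interaction of 1.13 ± 0.33 (SE) (adjusted p 0.397). Myc, at -0.66, was the most negative member. Calls without KO lesion 3 numbered 5 in this list. Among them was Jun at 0.72 (adjusted p 0.015), and Dusp1, at 1.27, was not called (0.0591).

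Genes of hypoxia and glycolysis had a median of 0.32, with 20 of 25 positive and 10 positive at an unadjusted p under 0.05. Members ranged from -0.31 for Ankrd37 to 1.35 for Adm. Adm lay at 9.88, 9.93 and 9.02 for WT lesions, beside a WT control range of 6.94 to 7.69 (median 7.41), and at 11.49, 11.01, 10.24 and 10.80 for KO lesions, beside KO controls of 7.40, 7.36 and 7.13. Adm encodes adrenomedullin, a vasodilator peptide, and rose by 2.24 in WT and 3.59 in KO mice (interaction 1.35 ± 0.35 (SE), adjusted p 0.397). Hilpda in WT mice was 6.55 to 6.75 among controls (median 6.64) and 7.24, 6.85 and 7.11 among lesions, and in KO mice 6.62, 6.41 and 6.62 among controls and 8.03, 7.97, 7.44 and 8.03 among lesions. Hilpda, a lipid-droplet protein induced by hypoxia, rose by 0.42 and 1.32, with no overlap between the lesions and an interaction of 0.90 ± 0.18 (SE) (adjusted p 0.314). Slc16a3, the lactate exporter, had 0.55 ± 0.14 (SE) (adjusted p 0.397). Without KO lesion 3, 5 of the 25 were called, among them Adm at 1.56 (adjusted p 0.022) and Slc16a3 at 0.64 (0.0193), and so was Hilpda at 1.04 (adjusted p 0.00116), which is not on the list.

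Epithelial genes of wound repair and stratified epithelium leaned positive too. All 23 genes of the fetal-like regenerating epithelium list were positive, 6 with an unadjusted p under 0.05, with a median of 0.35. All 18 squamous-epithelium genes were positive as well, but their median of 0.13 was close to the 0.06 of all genes and 4 had an unadjusted p under 0.05. Grhl3 ran from 5.47 to 5.85 over WT controls (median 5.56) and read 6.68, 6.65 and 6.96 over WT lesions, while KO controls read 5.72, 5.70 and 5.47 and KO lesions 8.57, 7.82, 8.0 and 7.44. Trim29 lay at 7.33, 6.97 and 7.36 for WT lesions, beside a WT control range of 5.89 to 6.32 (median 6.11), and at 8.92, 8.18, 8.50 and 7.85 for KO lesions, beside KO controls of 6.21, 6.09 and 5.89. Grhl3, a transcription factor of epithelial barrier repair, and Trim29, a protein of stratified epithelia, rose in both genotypes, with interactions of 1.16 ± 0.26 (SE) and 1.17 ± 0.26 (SE) (adjusted p 0.314 for both). In both genes every KO lesion, KO lesion 3 included, lay above every WT lesion. Cldn4 in WT mice was 8.47 to 9.26 among controls (median 9.01) and 10.46, 10.11 and 10.38 among lesions, and in KO mice 9.07, 8.83 and 8.22 among controls and 11.84, 11.13, 11.12 and 11 among lesions. Cldn4, a tight-junction claudin, had an interaction of 1.15 ± 0.32 (SE) (adjusted p 0.397). Krt13 ran from 5.61 to 5.91 over WT controls (median 5.80) and read 6.03, 6.04 and 6.05 over WT lesions, while KO controls read 5.83, 5.73 and 5.59 and KO lesions 6.81, 6.47, 6.52 and 6.36. Krt13, a keratin of stratified epithelia, was called higher in KO lesions (0.82) and had 0.25 in WT lesions, with an interaction of 0.58 ± 0.13 (SE) (adjusted p 0.35). Ccn1, a matrix protein induced by mechanical and wound signals, had 1.35 ± 0.41 (SE) (adjusted p 0.406). In the fit without KO lesion 3, no member of the fetal-like or the squamous list was called, and of the genes described here Grhl3 at 1.14 (adjusted p 0.0496) was.

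Signalling lists that overlap these groups held smaller shifts. Targets of IL-6 and STAT3 had 19 of 20 positive and a median of 0.27, those of NF-kB and TNF 24 of 28 positive and a median of 0.19, and ligands and partners of the EGF receptor 12 of 13 positive and a median of 0.27. At an unadjusted p under 0.05, 7 genes of the first and 6 of the next list were positive and none negative, and of the EGF receptor list 2 were positive and 1 negative. Matrix and protease genes had 20 of 22 positive and a median of 0.23, with Mmp8 highest. Adam8 lay at 6.53, 6.30 and 6.43 for WT lesions, beside a WT control range of 5.43 to 5.73 (median 5.52), and at 7.15, 7.65, 6.82 and 7.48 for KO lesions, beside KO controls of 5.40, 5.56 and 5.48. Adam8, a membrane protease of leukocytes, rose by 0.89 in WT and 1.79 in KO lesions without overlap, with an interaction of 0.91 ± 0.20 (SE) (adjusted p 0.314), and without KO lesion 3 it was called, with Adam8 at 1.06 (adjusted p 0.00367). That setting called 3 positive genes of the IL-6 and STAT3 list, 5 of the NF-kB and TNF list and 3 of the matrix and protease list. Complement (0.08), heat-shock (0.08), metallothionein and zinc (0.15) and epithelial antimicrobial genes (0.01) had medians within 0.1 of that of all genes. The 22 p53 and DNA damage genes went both ways, with a median of 0.03 and quartiles of -0.63 and 0.28. Of these, 4 were positive at an unadjusted p under 0.05, such as Pmaip1 (1.07), a promoter of apoptosis, and 6 negative, such as Chek2 (-0.95), a checkpoint kinase. Stem-cell and Wnt genes also went both ways, 9 of 18 in each direction, with 1 positive (Cd44, 0.68) and 3 negative at that p, and without KO lesion 3 with 2 positive and 8 negative. Genes of cell junctions and keratins had 22 of 27 positive and a median of 0.14. On the negative side, the unfolded protein response had 6 of 21 positive and a median of -0.23, with 5 negative at an unadjusted p under 0.05, and MHC class I had 2 of 15 positive and a median of -0.15, with 3. With all 16 arrays no member of these lists was called. Enteroendocrine cells (0.14) and tuft cells (0.09) also lay near the median of all genes, as did absorptive colonocytes (0.14).

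Several single genes with low unadjusted p belonged to no list. Tnfrsf23, a decoy receptor for TRAIL, had an interaction of 0.85 ± 0.15 (SE), Svil, an actin-binding protein, 0.78 ± 0.14 (SE), and Map4k4, a kinase of stress signalling, 0.52 ± 0.10 (SE), with adjusted p-values of 0.257, 0.257 and 0.314. Map4k4 in WT mice was 6.71 to 6.93 among controls (median 6.84) and 7.62, 7.58 and 7.63 among lesions, and in KO mice 6.85, 6.83 and 6.78 among controls and 8.05, 8.24, 7.96 and 8.23 among lesions. Its groups were tight and the KO lesions stood above the WT lesions by a small margin. Tmem95 ran from 5.20 to 5.49 over WT controls (median 5.37) and read 5.34, 5.38 and 5.30 over WT lesions, while KO controls read 5.45, 5.41 and 5.37 and KO lesions 6.06, 6.11, 6.24 and 5.84. For Tmem95, known for its part in fertilisation, WT lesions lay within the range of the controls and KO lesions lay above them (interaction 0.67 ± 0.12 (SE), adjusted p 0.257). Pls3, the actin bundler plastin 3, needs its WT controls by array. They were 8.02, 7.94 and 7.87 in arrays 1 to 3 and 7.43, 7.54 and 7.32 in arrays 4 to 6, a split that follows the lower and higher numbers in the sample descriptions. KO controls, of the higher numbers, were 7.35, 7.34 and 7.24, WT lesions 7.29, 7.51 and 7.62 and KO lesions 8.15, 8.19, 8.04 and 8.33. Its interaction was 1.08 ± 0.20 (SE) (adjusted p 0.265) with all arrays, 1.34 (0.00394) with WT controls 1 to 3 alone and 0.82 (0.789) with WT controls 4 to 6 alone. All lesions have lower numbers, so with WT controls 4 to 6 an additive shift between the number series is the same in both responses. When KO lesion 3 was left out, Tnfrsf23 at 0.85 (adjusted p 0.0202), Svil at 0.87 (0.00375), Map4k4 at 0.57 (0.0121), Tmem95 at 0.61 (0.0173) and Pls3 at 1.13 (0.0193) were called, and so was Gm9733 at 1.27 (adjusted p 0.00424).

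In 4 genes, named here after their values were seen, the responses themselves were called in opposite directions. Mboat2 lay at 5.30, 5.29 and 5.45 for WT lesions, beside a WT control range of 5.51 to 5.84 (median 5.68), and at 5.68, 6.15, 6.02 and 6.08 for KO lesions, beside KO controls of 5.59, 5.70 and 5.64. Mboat2, an acyltransferase of phospholipids, had -0.32 in WT lesions and rose by 0.34 in KO lesions, with an interaction of 0.66 ± 0.14 (SE) (adjusted p 0.314). Gm12251 in WT mice was 9.70 to 10.08 among controls (median 9.92) and 10.21, 10.25 and 10.08 among lesions, and in KO mice 9.97, 9.97 and 10.01 among controls and 9.72, 9.58, 9.77 and 9.82 among lesions. Gm12870 ran from 5.92 to 6.36 over WT controls (median 6.15) and read 6.55, 6.44 and 6.64 over WT lesions, while KO controls read 6.43, 6.33 and 6.28 and KO lesions 5.71, 5.79, 6.14 and 5.90. The predicted genes Gm12251 and Gm12870 rose in WT lesions (0.27 and 0.41) and fell in KO lesions (-0.26 and -0.46). Ifnk, encoding interferon kappa, lay between 3.15 and 3.55 in every array, under the array medians, and its interaction of -0.44 is read as a difference near background. The interactions of these 4 genes had adjusted p-values of 0.314, and without KO lesion 3 all 4 were called, Mboat2 at 0.65 (adjusted p 0.0428), Gm12251 at -0.54 (0.0421), Gm12870 at -0.95 (0.0161) and Ifnk at -0.44 (0.0461).

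The negative interactions lay in other kinds of genes. Negative calls without KO lesion 3 numbered 238 with all WT controls and 9 with those of the higher number series alone. All 27 genes of cell proliferation were negative, 20 with an unadjusted p under 0.05, and the median was -0.93. Their median response was 0.49 in WT and -0.41 in KO mice. Of the 27, 1 gene was called higher in WT lesions, against 6.98% of all genes. In KO lesions 1 was called lower, against 12.1%, so calls in neither response exceeded those shares. The mean level of the list lay at 8.10, 7.89 and 8.38 for WT lesions, beside a WT control range of 7.38 to 8.01 (median 7.62), and at 6.93, 7.26, 8.24 and 7.49 for KO lesions, beside KO controls of 8.05, 8.19 and 7.59. KO lesion 3, at 8.24, lay within the WT lesions and the other 3 KO lesions below them. Mki67 in WT mice was 10.08 to 10.59 among controls (median 10.41) and 10.93, 10.96 and 11.37 among lesions, and in KO mice 10.42, 11 and 10.30 among controls and 9.58, 10.16, 11.28 and 10.33 among lesions. Mcm6 ran from 7.59 to 8.01 over WT controls (median 7.88) and read 8.40, 7.93 and 8.45 over WT lesions, while KO controls read 8.31, 8.22 and 7.67 and KO lesions 6.72, 7.23, 8.20 and 7.39. Mki67, the marker of dividing cells, and Mcm6, a subunit of the replication helicase, had interactions of -0.94 ± 0.39 (SE) and -1.12 ± 0.35 (SE) (adjusted p 0.413 and 0.406), and lesions of the genotypes overlapped. Kif11, a spindle motor, and Top2a, a topoisomerase, had -1.42 ± 0.54 (SE) and -1.13 ± 0.41 (SE). WT controls differed by number series: their list means were 7.38, 7.42 and 7.50 in arrays 1 to 3 and 7.99, 8.01 and 7.74 in arrays 4 to 6. With WT controls 4 to 6 alone, the list's median interaction was -0.65 and 1 gene had an unadjusted p under 0.05. With WT controls 1 to 3 alone, the median was -1.21 and 22 genes did. Without KO lesion 3, the median was -1.18 and 8 genes were called, among them Mcm6 at -1.39 (adjusted p 0.0193), Mki67 at -1.26 (0.0347), Kif11 at -1.81 (0.0451) and Top2a at -1.42 (0.0495). The interaction was negative in all 27 members with either set of WT controls.

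Nuclear genes for mitochondrial proteins leaned negative. Of 30 mitochondrial ribosomal proteins, 28 were negative, 15 with an unadjusted p under 0.05, with a median of -0.39. In WT lesions 1 was called lower and in KO lesions 17, where 8.37% and 12.1% of all genes were called lower. Mrps35 lay at 6.54, 6.54 and 6.55 for WT lesions, beside a WT control range of 6.51 to 6.87 (median 6.67), and at 5.64, 6.03, 6.26 and 5.99 for KO lesions, beside KO controls of 6.75, 6.48 and 6.86. Mrps35, of the small mitochondrial ribosomal subunit, had every KO lesion below every WT lesion and an interaction of -0.60 ± 0.17 (SE) (adjusted p 0.397). Of 30 nuclear-encoded subunits of oxidative phosphorylation, 28 were negative, 11 with an unadjusted p under 0.05 (median -0.28). WT lesions had 2 called lower and KO lesions 22, and 15 had every KO lesion below every WT lesion, against 3.91% of all genes. The mean level of these subunits in WT mice was 9.18 to 9.44 among controls (median 9.32) and 9.16, 9.26 and 9.14 among lesions, and in KO mice 9.37, 9.19 and 9.41 among controls and 8.88, 8.95, 9.0 and 8.84 among lesions. The lesion means did not overlap, KO lesion 3 included. Sdhd ran from 9.74 to 10.43 over WT controls (median 10.12) and read 9.88, 10.04 and 10.03 over WT lesions, while KO controls read 10.42, 10.19 and 10.27 and KO lesions 9.26, 9.58, 9.77 and 9.33. Ndufs3 lay at 8.09, 8.22 and 8.12 for WT lesions, beside a WT control range of 7.84 to 8.18 (median 8.02), and at 7.70, 7.70, 7.82 and 7.75 for KO lesions, beside KO controls of 8.08, 8.02 and 8.09. Sdhd, a membrane anchor of complex II, and Ndufs3, a core subunit of complex I, had interactions of -0.70 ± 0.21 (SE) and -0.43 ± 0.11 (SE) (adjusted p 0.397 and 0.39). Samm50 in WT mice was 8.78 to 9.04 among controls (median 8.91) and 9.06, 8.93 and 9.02 among lesions, and in KO mice 9.03, 9.06 and 8.92 among controls and 8.42, 8.46, 8.81 and 8.44 among lesions. Samm50, which inserts proteins into the outer mitochondrial membrane, had -0.57 ± 0.13 (SE) (adjusted p 0.314), with KO lesion 3 between the other KO lesions and the WT lesions. Here too WT controls 1 to 3 lay below 4 to 6, at 9.18, 9.19 and 9.23 against 9.41, 9.44 and 9.42 for oxidative phosphorylation. KO lesions share the number series of the former and KO controls that of the latter. The calls of the KO response therefore cannot be told apart from a shift between the series. With WT controls 4 to 6 alone, the medians were -0.29 for the mitochondrial ribosome and -0.17 for oxidative phosphorylation, and the members at an unadjusted p under 0.05 numbered 3 and 6. Without KO lesion 3, 6 mitochondrial ribosomal genes were called, all negative, with Mrps35 at -0.69 (adjusted p 0.0446), none of the oxidative phosphorylation list was (14 had an unadjusted p under 0.05), and outside the lists Samm50 at -0.66 (adjusted p 0.00614) was. Of 26 listed cytosolic ribosomal proteins, 11 had a row that was used here. All 11 were negative, with a median of -0.18 and 1 at an unadjusted p under 0.05.

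The most negative single genes were immunoglobulin variable segments, which plasma cells express in rearranged form. These families were picked out after their values were seen. Of 117 heavy-chain (Ighv) segments 108 were negative, 44 with an unadjusted p under 0.05, and of 86 kappa (Igkv) segments 76 were negative, 25 at that p. Their medians were -0.97 and -0.95. With WT controls 4 to 6 alone, the medians were -0.81 and -0.97, and 18 and 13 segments had an unadjusted p under 0.05. In WT lesions 65 Ighv and 24 Igkv segments were called higher, where 6.98% of all genes were, and in KO lesions 2 and 1, where 8.98% of all genes were. The mean level of the Ighv segments ran from 5.37 to 6.22 over WT controls (median 5.93) and read 6.89, 7.47 and 6.74 over WT lesions, while KO controls read 5.72, 5.68 and 6.02 and KO lesions 4.98, 6.63, 6.01 and 6.43. KO lesion 1 was the lowest of all arrays, and KO lesions 2 to 4 lay below all WT lesions. Igkv19-93 lay at 10.32, 9.94 and 9.99 for WT lesions, beside a WT control range of 6.59 to 7.70 (median 7.13), and at 5.57, 7.63, 8.16 and 7.38 for KO lesions, beside KO controls of 7.10, 7.54 and 7.39. Igkv19-93 had the most negative interaction of all genes, -3.17 ± 0.59 (SE) (adjusted p 0.257), and its KO lesions lay below its WT lesions without overlap. Ighv1-81 in WT mice was 4.17 to 5.83 among controls (median 5.08) and 7.71, 7.05 and 8.04 among lesions, and in KO mice 4.35, 6.31 and 5.02 among controls and 3.81, 6.36, 5.09 and 5.05 among lesions. Ighv1-81 had -2.72 ± 0.76 (SE) (adjusted p 0.397). Without KO lesion 1 the medians were -0.51 for Ighv and -0.62 for Igkv, and Igkv19-93, at -2.63, was called (adjusted p 0.0306). It was also called without KO lesion 3, with Igkv19-93 at -3.49 (adjusted p 0.00698). Segments are alike in sequence, which could split or share probe signal, and they are not independent of each other. Jchain ran from 6.15 to 7.24 over WT controls (median 7.07) and read 7.85, 8.59 and 7.66 over WT lesions, while KO controls read 6.75, 6.24 and 7.46 and KO lesions 4.58, 7.57, 6.67 and 7.29. Jchain, the chain that joins IgA and IgM into polymers, had -1.40 ± 0.74 (SE) (adjusted p 0.47), and -0.75 without KO lesion 1. B-cell and plasma-cell markers as a list of 20 had a median of -0.19, with 14 negative, 4 of them at an unadjusted p under 0.05, and 2 positive at that p.

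Further negative genes came from antigen processing and from secretory epithelium. Psmb10 lay at 9.83, 9.79 and 9.83 for WT lesions, beside a WT control range of 8.71 to 9.13 (median 8.93), and at 9.31, 9.16, 9.25 and 9.27 for KO lesions, beside KO controls of 9.12, 8.79 and 8.96. Psmb10, a subunit of the immunoproteasome, rose by 0.89 in WT and 0.29 in KO lesions, in tight and separate groups (interaction -0.60 ± 0.13 (SE), adjusted p 0.314). Cd177 in WT mice was 9.35 to 9.91 among controls (median 9.69) and 10.75, 10.42 and 10.71 among lesions, and in KO mice 9.81, 9.89 and 9.91 among controls and 9.30, 9.85, 10.06 and 9.95 among lesions. Cd177, a surface glycoprotein known from neutrophils, was high in control mucosa, rose by 0.97 in WT lesions and had -0.08 in KO lesions. Its interaction of -1.04 ± 0.22 (SE) (adjusted p 0.314) is opposite in sign to that of the neutrophil list, of which it is no member. Sidt1, a membrane protein linked to RNA transport, Polr2j, a subunit of RNA polymerase II, and Nme6, a nucleoside diphosphate kinase family member, had -0.80 ± 0.18 (SE), -0.54 ± 0.13 (SE) and -0.66 ± 0.16 (SE) (adjusted p 0.314, 0.35 and 0.375). Epsti1, an interferon-responsive gene, had -0.62 ± 0.15 (SE) (adjusted p 0.35). Of 23 goblet-cell genes 15 were negative, 3 with an unadjusted p under 0.05, and the median was -0.10. That median was -0.32 without KO lesion 2, with 8 genes at an unadjusted p under 0.05, -0.01 without KO lesion 1, -0.17 without KO lesion 3 and -0.05 without KO lesion 4. Spink4 ran from 11.06 to 12.12 over WT controls (median 11.38) and read 11.02, 11.21 and 11.24 over WT lesions, while KO controls read 12.05, 11.74 and 11.94 and KO lesions 10.06, 10.57, 10.97 and 10.08. Spink4, a secreted peptide of goblet cells, was called lower in KO lesions (-1.49) and had -0.32 in WT lesions, with an interaction of -1.17 ± 0.34 (SE) (adjusted p 0.397). Ern2, the stress sensor of mucus-producing cells, had -0.86 ± 0.28 (SE), and Reg4, a secreted lectin, -1.53 ± 0.49 (SE), with adjusted p-values of 0.406 and 0.406. With WT controls 4 to 6 alone, Spink4 had -0.81 and Reg4 -1.29. The calls without KO lesion 3 among these genes were Psmb10 at -0.60 (adjusted p 0.0424), Cd177 at -1.14 (0.0198), Sidt1 at -0.90 (0.0176), Polr2j at -0.60 (0.0228) and Nme6 at -0.77 (0.0106), and Spink4 at -1.35 (adjusted p 0.0457) and Reg4 at -1.87 (0.0346).

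**Figure D4:**
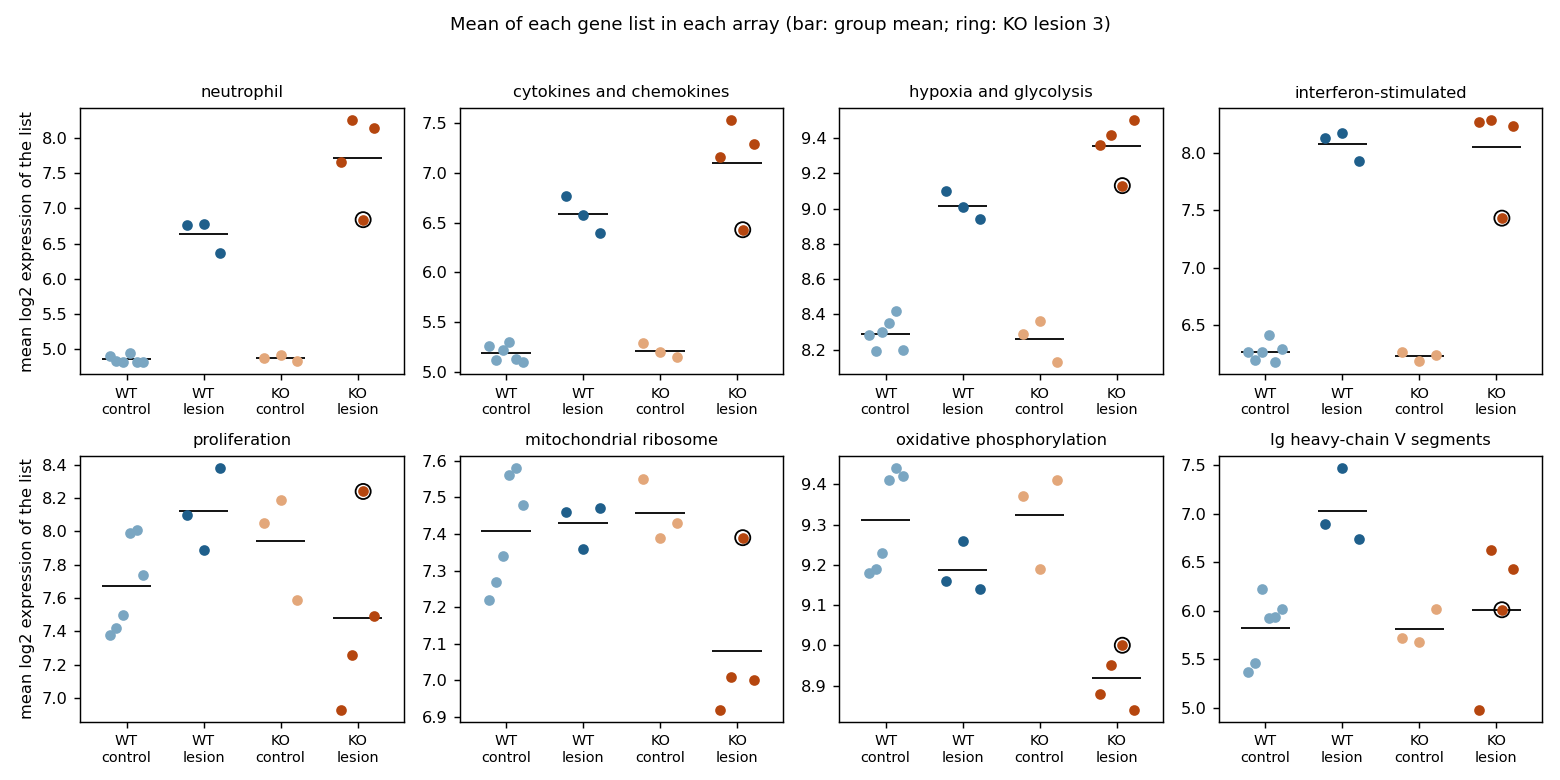
Mean log2 expression of 8 gene lists (vertical) in each array, grouped by genotype and tissue, with a bar at each group mean and a ring around KO lesion 3. For interferon-stimulated genes both sets of lesions lie between 7.93 and 8.28 except KO lesion 3 at 7.43; for neutrophil genes the KO lesions other than KO lesion 3 lie from 7.66 to 8.25, above WT lesions from 6.37 to 6.78.

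Some large responses were shared by the genotypes, and no member of their lists was called for the interaction with all 16 arrays. Of 27 interferon-stimulated genes, 24 were called higher in WT and 23 in KO lesions, where 6.98% and 8.98% of all genes were. Median responses of the list were 1.67 and 1.64. Their median interaction was -0.05, none reached an unadjusted p under 0.05, and without KO lesion 3 the median was 0.08. Gbp2 lay at 10.79, 10.17 and 10.90 for WT lesions, beside a WT control range of 5.99 to 7.03 (median 6.41), and at 10.79, 11.60, 10.26 and 11.47 for KO lesions, beside KO controls of 6.60, 6.70 and 6.23. Gbp2, a guanylate-binding protein induced by interferon gamma, rose by 4.22 and 4.52, with an interaction of 0.30 ± 0.41 (SE) and a 95% interval of -0.57 to 1.17. Of 12 MHC class II genes 7 were called higher in each genotype, against the same shares of all genes. Of the 12, 11 had a negative interaction, so this list leaned negative, with 0 at an unadjusted p under 0.05. The list's median was -0.34, or -0.25 without KO lesion 1 and -0.20 without KO lesion 3. It was -0.43 without KO lesion 2, -0.39 without KO lesion 4 and -0.50 with the replicate block. In those 3 fits 3, 6 and 4 genes had an unadjusted p under 0.05. H2-Ab1 in WT mice was 7.26 to 7.97 among controls (median 7.51) and 10.45, 10.29 and 10.52 among lesions, and in KO mice 7.72, 7.71 and 7.61 among controls and 9.63, 10.20, 9.40 and 10.55 among lesions. H2-Ab1, a class II chain, rose by 2.87 and 2.27, with an interaction of -0.60 ± 0.29 (SE) (adjusted p 0.452). Of 37 genes of xenobiotic metabolism 21 were called lower in each genotype, against 8.37% of all genes in WT and 12.1% in KO lesions, and their median interaction was -0.02, from -0.18 without KO lesion 2 to 0.07 without KO lesion 1 or 3. Of 27 PPAR and fatty acid oxidation genes, 16 were called lower in WT lesions, against 8.37% of all genes. In KO lesions 15 were, against 12.1%, and the median interaction was -0.03. The 21 genes listed for Mcc partners, adhesion and polarity had a median of 0.07, with 13 positive. A p that misses the threshold does not show that the responses are equal.

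**Figure D5:**
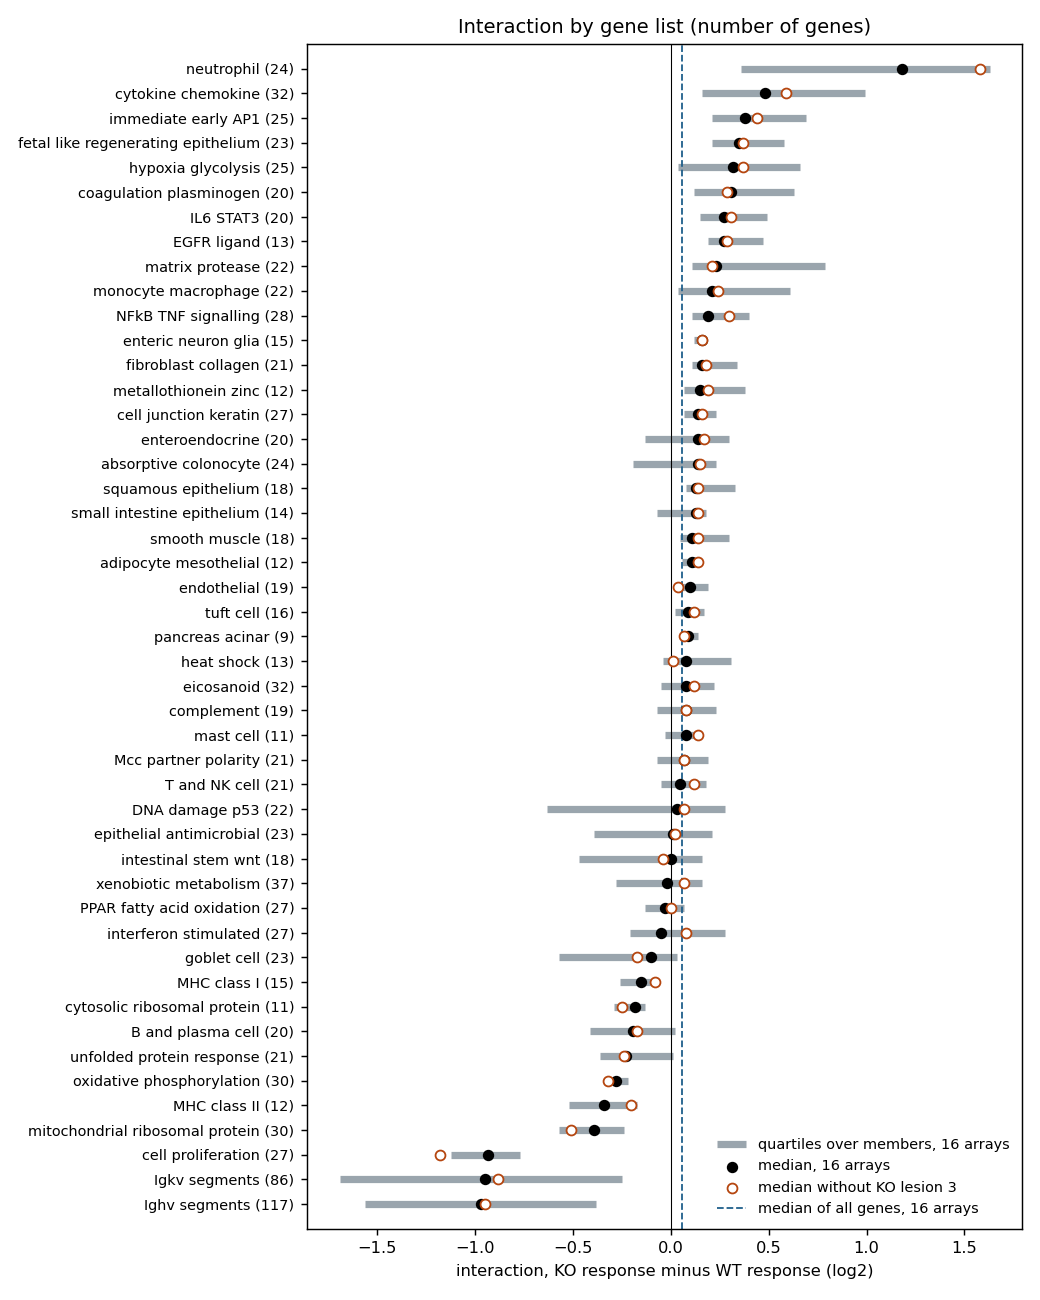
Median interaction of each gene list (horizontal, log2) with all 16 arrays (filled) and without KO lesion 3 (open), with bars for the quartiles over the members. The neutrophil list is highest at 1.18, and proliferation and the immunoglobulin segments are lowest, from -0.93 to -0.97; the dashed line at 0.06 is the median of all genes.

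Markers of cell types that a piece of mucosa could carry along were read beside these results. Smooth muscle had a median interaction of 0.11 over 18 genes, enteric neurons and glia 0.16 over 15, fat and mesothelium 0.11 over 12, pancreas 0.09 over 9 and small intestine 0.13 over 14. Endothelium (0.10), mast cells (0.08) and T and NK cells (0.05) were also close to the 0.06 of all genes, and fibroblasts and collagens had 0.16 over 21 genes, 18 of them positive. Smooth-muscle list means were 5.90 to 6.40 over WT controls, 6.20 to 6.26 over WT lesions, 5.88 to 6.16 over KO controls and 6.19 to 6.60 over KO lesions, with KO lesion 2 highest. The part of differing cell make-up in the interactions was not tested.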

How the data were processed

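Per the submitters' processing notes, the deposited log2 values are RMA expression levels made by the authors with Affymetrix Power Tools 1.16.1, and the annotation version is not given in the sources used here. Of 72688 rows, 31261 carried 1 gene symbol in the platform annotation, and the row with the highest mean stood for each of 30704 genes. Rows with several symbols (1489) or not listed (39938) were not used. A group-means model over the 16 arrays was fitted with limma 3.58.1 in R 4.3.3, with Benjamini-Hochberg adjustment over all genes, and a gene was called at an adjusted p under 0.05. The script was tested on simulated data. Genes and lists were chosen with earlier results of these data known. Named genes are those with the lowest p, the largest interactions and, per list, the lowest p and largest size, and 20 more were named after their values were seen. The number of arrays limits the precision. Numbers in the sample descriptions fall below or above 500 and were treated as 2 series whose meaning the labels do not state. The main fit was not paired by replicate number, for the lesions or for the interaction. Same-numbered lesions deviated together, so an alternative fit took the number as a block. For the interaction the numbers do not pair, as KO controls deviated against the same-numbered arrays of each of the other 3 groups.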

Additional observations from a re-analysis of the deposited data

Results flagged for a closer look

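Plat differed in its response between the genotypes, by an interaction of 2.06 in limma's test.

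In 172 sets of values (74 genes and 12 list means, in groups of 4 to 6 arrays), 8 (4.65%) held an array far from the rest of its group, and chance gives about 1 in 20. In KO lesion 3, Hilpda was lowest at 7.44 (others 7.97 to 8.03), Samm50 highest at 8.81 (others 8.42 to 8.46), Nme6 highest at 5.84 (others 5.38 to 5.43) and the interferon-stimulated list mean lowest at 7.43 (others 8.23 to 8.28). In KO lesion 1, Ccl8 was lowest at 4.03 (others 4.64 to 4.74) and Cldn4 highest at 11.84 (others 11 to 11.13). Among WT controls, Slc16a3 was highest in control 1 at 6.51 (others 6.27 to 6.31) and Svil in control 3 at 5.92 (others 5.62 to 5.73).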

How the results depend on the processing

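Plat was called under all 31 other settings, with interactions of 1.97 to 2.22 and adjusted p of 5.01e-05 to 0.0188. With the replicate block, used as an alternative since the numbers do not pair across the 4 groups, it was 2.22 (adjusted p 0.0188), and 1 gene was called. Interaction calls numbered 2 with WT controls of the lower number series and 76 with those of the higher series and without KO lesion 3 (chosen after seeing the data). Leaving out 1 array gave 1 to 517 interaction calls, 3155 to 5123 for the WT response, 4471 to 7005 for the KO response, 0 to 2 between controls and 4 to 1695 between lesions. The KO response had 2511 calls with the number series as a covariate. Controls of the genotypes had 1 call with lower-series WT controls, cyclic loess or array weights, where the count was 0 with 641 at an unadjusted p under 0.05. Calls between lesions were 94, against 2 with the replicate block, 4 with lower-series and 6 with higher-series WT controls, 5 over all rows, 26 after median centring, 58 with cyclic loess or the series covariate, 153 with dim values raised to the array median, about 7.1e+02 with array weights and 1833 with higher-series controls and without KO lesion 3. Mcpt1, a mast-cell protease, turned from -0.21 to 0.12 without KO lesion 3 and to 0.00 without WT lesion 2 (range over left-out arrays -0.60 to 0.12) and to 0.12 with higher-series controls as well, where Mptx2 turned to 0.04. The causes of these changes were not tested.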
